A study of Mus musculus with 10 samples.

Results

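The 36 mitotic genes described here encode the cyclins, kinases, kinesins, kinetochore proteins and chromatin factors of the G2 and M phases of the cell cycle. They were picked by name from the gene names of the deposited count table, which holds 46603 genes, and all 36 were found. RNA had been sequenced from macrophages of 4T1 tumours, which grow from a mouse mammary carcinoma cell line of that name. Live cells carrying both CD11B and F4/80, surface proteins of mouse macrophages, were sorted into a fraction with podoplanin (PDPN+, named PoEMs by the submitters) and one without it (PDPN-, non-PoEMs). Both fractions came from each of 5 tumours, numbered 1, 2, 4, 5 and 6, so that each group held 5 libraries. No treatment or genotype is given in the labels. The labels do not give the strain, sex or age of the mice, nor whether each tumour came from a separate mouse, so the p-values measure the spread between these libraries. The study was concerned with the part of PDPN+ macrophages in lymphatic growth and matrix remodelling, and the comparison here asked how the mitotic genes differed between the fractions.

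A cell enters mitosis when CDK1, bound to cyclin A or B, is switched on, with help from Polo and Aurora kinases. Chromosomes are then attached to spindle microtubules at the kinetochores, a checkpoint holds back the anaphase-promoting complex until all are attached, and cytokinesis parts the daughter cells. Transcripts of these genes build up together late in the cycle and are low in resting cells. Tumour macrophages arise from blood monocytes and also divide within tissues. In bulk RNA of a sorted fraction, more dividing cells and more mitotic RNA in each dividing cell cannot be told apart.

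Promoters of late cell cycle genes are known for an element called the cell cycle homology region, which the MuvB protein complex recognises, and for the box bound by the factor NF-Y. Because the members moved together, their promoters were searched for the letters TTTGAA and CCAAT, on both strands. RefSeq promoter windows of GRCm38.p6, from 250 bases before to 50 bases after the start, were matched for 29 of the 36 members. No entry was matched for Aurkb, Ccna2, Cdc25c, Incenp, Kif20a, Stmn1 and Tpx2. The windows below cover 110 bases before to 25 bases after the start, read 5′ to 3′ in the direction of the gene. They were picked among members with TTTGAA near the start, to show how it is placed: 4 that passed the test described below, Cdk1, Cdca8, Ttk and Prc1, and 2 that did not, Ccnb2 and Hmgb2. Capitals mark TTTGAA, which reads TTCAAA when it lies on the other strand, and CCAAT, which then reads ATTGG.
Cdk1 (chr10:69352888-69353022, minus strand): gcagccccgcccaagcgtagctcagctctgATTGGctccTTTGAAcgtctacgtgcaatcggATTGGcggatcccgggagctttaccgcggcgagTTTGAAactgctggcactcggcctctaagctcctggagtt
Cdca8 (chr4:124936893-124937027, minus strand): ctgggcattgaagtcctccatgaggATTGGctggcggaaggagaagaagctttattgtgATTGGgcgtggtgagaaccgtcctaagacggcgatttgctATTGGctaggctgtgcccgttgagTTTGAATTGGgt
Ttk (chr9:83834579-83834713, plus strand): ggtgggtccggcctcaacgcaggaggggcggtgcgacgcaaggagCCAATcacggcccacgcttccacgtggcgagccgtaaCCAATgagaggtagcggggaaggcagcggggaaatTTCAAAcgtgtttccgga
Prc1 (chr7:80294341-80294475, plus strand): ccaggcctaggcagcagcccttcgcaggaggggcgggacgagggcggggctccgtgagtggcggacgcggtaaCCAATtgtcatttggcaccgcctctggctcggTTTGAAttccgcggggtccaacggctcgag
Ccnb2 (chr9:70421530-70421664, minus strand): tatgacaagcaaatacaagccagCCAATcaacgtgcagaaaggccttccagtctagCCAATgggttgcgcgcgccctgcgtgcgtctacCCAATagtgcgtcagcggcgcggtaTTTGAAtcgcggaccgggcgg
Hmgb2 (chr8:57511733-57511867, plus strand): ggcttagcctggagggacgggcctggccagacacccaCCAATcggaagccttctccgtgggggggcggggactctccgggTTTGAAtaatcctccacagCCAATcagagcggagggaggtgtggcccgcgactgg

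In Cdk1, the kinase that drives mitosis, TTTGAA stood 71 and 15 bases before the start, with CCAAT on the other strand 80 and 48 bases before it. In Prc1, a protein that bundles microtubules between the parting chromosomes, it stood 5 bases before the start, and in Ccnb2, which encodes cyclin B2, 5 bases after it. Hmgb2, a DNA-bending protein of chromatin, carried it 30 bases before the start. In Cdca8, which encodes borealin, the motif lay 14 bases after the start, and the last base of it was shared with a CCAAT box on the other strand.

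Of the 29 members, 23 (79.3%) held TTTGAA somewhere in the window, 21 (72.4%) held it within 50 bases of the start, 23 (79.3%) held CCAAT, and 20 (69.0%) held both. Among the 9471 tested genes with a window, TTTGAA was present in 14.3%, within 50 bases of the start in 3.82%, CCAAT in 42.9% and both in 5.88%. Among all 27025 genes with a window of this length the shares were 20.2%, 5.72%, 41.1% and 7.97%. Of a list of 77 other G2 and M phase genes, 65 had a window. These held TTTGAA in 53.8%, and near the start in 44.6%. Of 42 listed genes of G1 and S phase, which act earlier in the cycle, 35 had a window, and the shares were 17.1% and 8.57%. TTTGAA was held by 16 of the 20 members that passed the test (80.0%) and 7 of the 9 that did not (77.8%), and near the start by 15 of 20 and 6 of 9. CCAAT was held by 85.0% and 66.7%, and within 50 bases of the start by 13 of 20 (65.0%) and 3 of 9 (33.3%). These shares were not tested against each other. The split follows the fit without the tumour as a block. With that block, described below, all of the 9 but Ccnb2, Cenpa and Hmgb2 were called higher. The split therefore does not part changed from unchanged members. The windows of Nuf2, Birc5 and Nusap1 held neither set of letters. Ect2 and Prc1 have 2 annotated starts each, and a gene was counted when either window held the motif. These shares are descriptions of letters, not of bound sites.

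**Figure D1:**
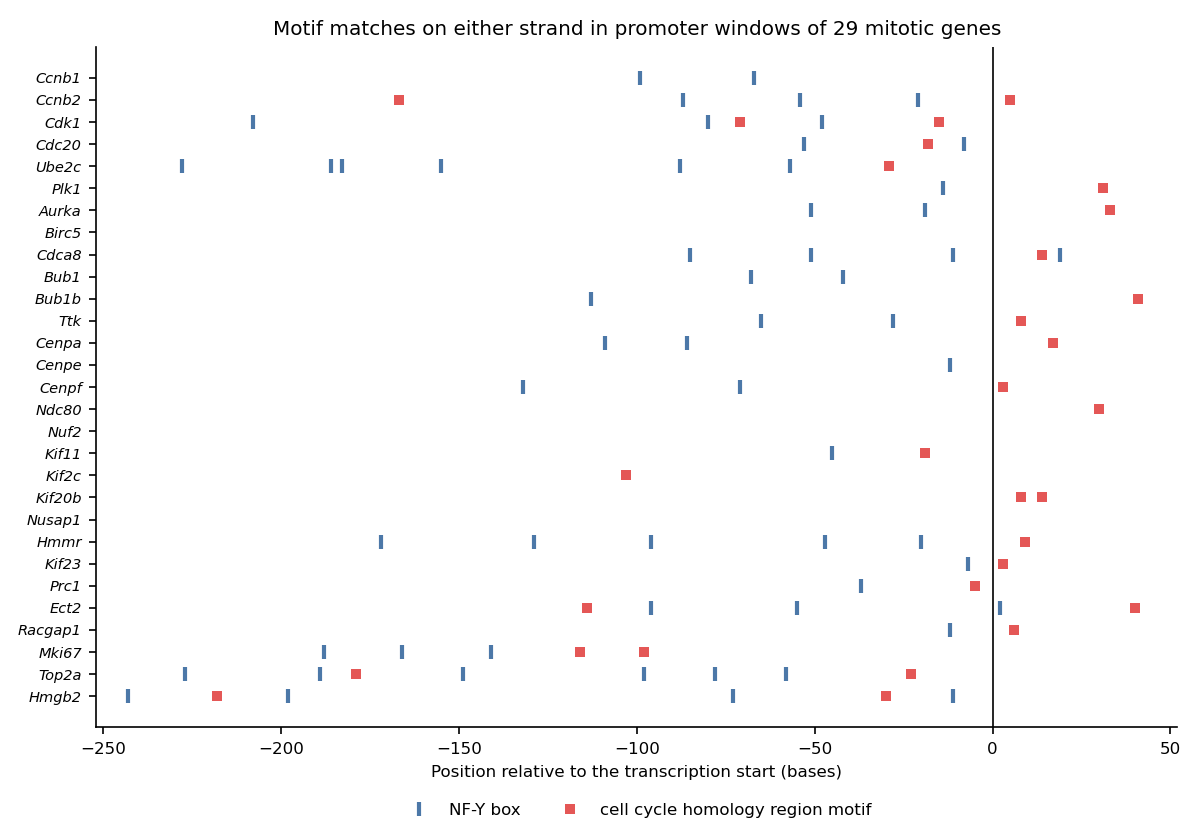
Positions of the cell cycle homology region motif (red squares) and the NF-Y box (blue bars), on either strand, in the promoter windows of the 29 members with an entry; the horizontal axis is the distance from the transcription start in bases, and each row is 1 gene (1 of the 2 starts for Ect2 and Prc1). Most red squares lie within 50 bases of the start, where 21 of the 29 genes have a match.

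Outside the members, 341 tested genes carried TTTGAA within 50 bases of the start. Of these, 56 (16.4%) were higher and 20 (5.87%) lower in the PDPN+ fraction. The 9101 tested genes without it had 584 (6.42%) higher and 685 (7.53%) lower. Of the 341 genes, 32 belonged to the cell cycle lists described further on, against 83 of the 9101. How many of the 56 were among these 32 was not counted. The shares therefore do not show how genes with the motif outside the cell cycle lists behaved.

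Mitotic genes were higher in the PDPN+ fraction as a group, by a modest amount that varied between members and between tumours. Every one of the 36 fitted fold changes was above 1, from 1.1-fold to 1.8-fold, and 26 of them lay between 1.4-fold and 1.7-fold. The median log2 fold change was 0.59 (1.51-fold), against 0.01 over all 13595 genes tested. The test was edgeR's quasi-likelihood test on group alone, which leaves out the pairing by tumour, with Benjamini-Hochberg adjustment over all genes tested. It called 26 of the 36 members (72.2%) higher at an adjusted p under 0.05, and 0 lower. At an unadjusted p under 0.05 there were 34 higher and 0 lower, and DESeq2 called 31 higher and 0 lower. Across all tested genes 6.83% were called higher and 6.77% lower. All 36 members passed the filter on low counts, and a member had between 53 and 7119 counts in a library. Values below are CPM, the count relative to the library total after scaling with TMM, and folds are PDPN+ over PDPN-, with the SE of the log2 fold change. An edgeR adjusted p is from the fit on group alone unless the tumour block is named.

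Since both fractions of a tumour share that tumour, a fit with the tumour as a block was run beside it. It called 33 of 36 members higher (91.7%) and 0 lower, where 13.8% of all tested genes were called higher and 14.3% lower. The SE was smaller with the block for every member (for Cdk1 0.06 against 0.16), at near-equal log2 fold changes. The 7 members gained were Ube2c, Bub1b, Birc5, Cdc25c, Kif23, Kif2c and Nusap1. Ccnb2, Cenpa and Hmgb2 were called in neither fit. In 12 members (33.3%) the lowest PDPN+ library stood above the highest PDPN- library, against 5.38% of all tested genes. They were Ccnb1, Cdk1, Plk1, Cdca8, Incenp, Cenpf, Nuf2, Kif20b, Hmmr, Stmn1, Kif20a and Prc1. In 30 members the PDPN+ library was the higher one in all 5 tumours, against 17.4% of all tested genes.

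Among the cyclins, CDK1 and the phosphatase that activates it, 3 of 5 were called higher, with a median log2 fold change of 0.57. Cdk1 (ENSMUSG00000019942, chromosome 10, 69335146 to 69352938 of GRCm38, minus strand) read 58.0, 38.3, 48.6, 32.8 and 49.1 CPM in the PDPN- libraries of tumours 1, 2, 4, 5 and 6, and 91.7, 72.7, 78.7, 59.7 and 68.1 CPM in the PDPN+ libraries. The groups did not overlap, although PDPN+ tumour 5 came close to PDPN- tumour 1. The difference was 0.71 ± 0.16 on the log2 scale (1.64-fold, edgeR adjusted p = 0.013). Ccna2, which encodes cyclin A2, the partner of CDK1 and CDK2 from S phase into early mitosis, measured 70.2, 44.3, 51.3, 42.5 and 50.8 CPM without PDPN and 98.9, 79.1, 95.7, 71.3 and 67.9 CPM with it. PDPN- tumour 1 lay above PDPN+ tumour 6, so that these groups overlapped, while the PDPN+ library was the higher one in each tumour. The fold was 1.6 (log2 0.67 ± 0.15, edgeR adjusted p = 0.0136).

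The B-type cyclins, which carry CDK1 through mitosis, were less even. Ccnb1 was 6.49 ± 0.570 CPM in PDPN- and 9.33 ± 2.3 CPM in PDPN+ libraries (SD, n = 5 each, 1.44-fold, edgeR adjusted p = 0.0411). Ccnb2 read 41.0, 24.2, 31.1, 27.4 and 35.5 CPM in PDPN- and 46.9, 39.3, 51.5, 36 and 32.1 CPM in PDPN+ libraries. It was higher with PDPN in 4 tumours and lower in tumour 6, and its difference of 0.37 ± 0.16 on the log2 scale missed the threshold (edgeR adjusted p = 0.152, with the tumour block 0.0714). Cdc25c, the phosphatase that activates CDK1, measured 4.51 ± 1.04 and 6.65 ± 1.45 CPM (SD, n = 5 each, 1.48-fold, edgeR adjusted p = 0.0625, with the tumour block 0.0159).

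The pair that works with the anaphase-promoting complex, the ubiquitin ligase that ends mitosis, sat near the threshold in the fit without the block. Cdc20, its activator, read 22.3, 16.5, 20.8, 18.2 and 25.8 CPM in PDPN- and 32.5, 27.1, 35.0, 23.6 and 23.9 CPM in PDPN+ libraries. In tumour 6 the order of the fractions was turned, and PDPN- tumour 6 exceeded PDPN+ tumours 5 and 6. The fold was 1.37 (log2 0.46 ± 0.14, edgeR adjusted p = 0.0475, with the tumour block 0.0155). Ube2c, the E2 enzyme of the complex, measured 37.0, 24.8, 31.7, 29.1 and 33.1 CPM against 58.1, 40.8, 55.7, 41.2 and 31.2 CPM with PDPN. It too was slightly lower with PDPN in tumour 6, and it was called with the block alone (1.46-fold, edgeR adjusted p = 0.0532, with the tumour block 0.0168).

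All 3 genes of the Polo and Aurora A group were called. Plk1 (ENSMUSG00000030867, chromosome 7, 122159439 to 122169873, plus strand), the Polo kinase of mitotic entry and spindle assembly, had the lowest p of all members. Its PDPN- libraries read 27.0, 17.5, 25.3, 21.1 and 23.0 CPM, and its PDPN+ libraries 43.6, 38.8, 48.0, 33.4 and 35.1 CPM. The lowest PDPN+ library stood clear of the highest PDPN- library. The fold was 1.75 (log2 0.81 ± 0.13, edgeR adjusted p = 0.00132). Tpx2, which targets Aurora A to the spindle and activates it, measured 62.2, 43.3, 48.2, 37.8 and 49.2 CPM against 87.3, 73.1, 85.4, 61.2 and 61 CPM with PDPN. PDPN- tumour 1 reached the level of PDPN+ tumours 5 and 6, and the fold was 1.53 (edgeR adjusted p = 0.0162). Aurka, which encodes Aurora A itself, went from 22.9 ± 3.04 to 31.5 ± 5.63 CPM (SD, n = 5 each, 1.38-fold, edgeR adjusted p = 0.0265).

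The chromosomal passenger complex corrects faulty chromosome attachments and later guides cytokinesis, and 3 of its 4 members were called. Incenp, the scaffold, had a narrow spread and a small fold. It read 114, 86.7, 101, 95.9 and 94.7 CPM in PDPN- and 154, 133, 146, 122 and 116 CPM in PDPN+ libraries. PDPN+ tumour 6 and PDPN- tumour 1 nearly met, without overlap (1.37-fold, log2 0.45 ± 0.09, edgeR adjusted p = 0.00572). Cdca8, which encodes borealin, measured 34.4, 24.0, 29.1, 25.7 and 33.9 CPM against 53.1, 39.6, 51.8, 41.1 and 41.3 CPM with PDPN, again without overlap (1.54-fold, edgeR adjusted p = 0.00483). Aurkb, the kinase of the complex, was 37.8 ± 5.55 and 54.9 ± 10.1 CPM (SD, n = 5 each, 1.45-fold, edgeR adjusted p = 0.0189). Birc5, which encodes survivin, was 29.1 ± 6.05 and 42.0 ± 8.78 CPM (SD, n = 5 each, 1.45-fold) and was called with the block alone (edgeR adjusted p = 0.0568, with the tumour block 0.00013).

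Of the spindle checkpoint kinases, which delay anaphase while chromosomes are unattached, 2 of 3 were called. Bub1 read 34.6, 18.2, 25.7, 19.7 and 24.6 CPM in PDPN- and 47.9, 37.8, 45, 34.2 and 33.0 CPM in PDPN+ libraries. The overlap came from PDPN- tumour 1, which lay above PDPN+ tumours 5 and 6 (1.62-fold, log2 0.69 ± 0.17, edgeR adjusted p = 0.0221). Ttk, which encodes the kinase MPS1, measured 13.5, 8.97, 10.7, 8.08 and 10.6 CPM against 20.3, 15.4, 21.6, 13.3 and 12.4 CPM with PDPN, with the same libraries overlapping (1.61-fold, edgeR adjusted p = 0.0253). Bub1b, which encodes BUBR1, was 46.1 ± 9.44 and 64.6 ± 11.1 CPM (SD, n = 5 each, 1.4-fold, edgeR adjusted p = 0.0545, with the tumour block 0.000201).

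At the centromere and kinetochore 4 of 5 members were called. Cenpf, a large protein of the outer kinetochore, read 33.9, 23.2, 27.5, 25.5 and 26.0 CPM in PDPN- and 50.7, 42.7, 52.5, 36.7 and 34.4 CPM in PDPN+ libraries. Its groups were separate by a narrow margin (1.6-fold, log2 0.67 ± 0.13, edgeR adjusted p = 0.00612). Nuf2, a subunit of the NDC80 complex that holds microtubules, measured 18.6, 12.9, 17.3, 11.1 and 15.4 CPM against 27.5, 24.4, 28.3, 19.4 and 20 CPM with PDPN, also without overlap (1.59-fold, edgeR adjusted p = 0.0126). Its partner Ndc80 and the kinetochore motor Cenpe were higher by 1.47-fold and 1.45-fold (edgeR adjusted p = 0.0258 and 0.0212). Cenpa, the histone variant that marks centromeres, stood apart from these. It read 91.1, 75, 70.0, 65.7 and 58.1 CPM in PDPN- and 106, 84.9, 86.4, 65.8 and 57.5 CPM in PDPN+ libraries. The fractions were almost level in tumours 5 and 6, and the log2 difference was 0.16 ± 0.17 (edgeR adjusted p = 0.594, with the tumour block 0.0709).

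Among spindle motors and microtubule binders 4 of 6 were called. Stmn1, which encodes stathmin, a protein that destabilises microtubules, had the largest fold of all 36 members. It lies on chromosome 4, 134468320 to 134473843, plus strand (ENSMUSG00000028832). The PDPN- libraries read 8.76, 7.14, 6.97, 6.2 and 7.75 CPM and the PDPN+ libraries 17.2, 11.6, 16.0, 10.1 and 11 CPM. The groups did not overlap, and tumours 1 and 4 were highest among the PDPN+ libraries (1.8-fold, log2 0.84 ± 0.16, edgeR adjusted p = 0.00408). Kif20b, a kinesin of late mitosis, measured 17.5, 14.0, 14.9, 11.3 and 15.1 CPM against 26.2, 22.7, 25.2, 20 and 19.1 CPM with PDPN, also without overlap (1.56-fold, edgeR adjusted p = 0.0044). Kif11, the motor that pushes the spindle poles apart, and Hmmr, a spindle assembly factor, were higher by 1.6-fold and 1.48-fold (edgeR adjusted p = 0.0177 and 0.0112).

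The other spindle members were called with the block alone. Kif2c, a kinesin that takes microtubules apart at centromeres, was 23.5 ± 2.85 and 27.6 ± 1.4 CPM (SD, n = 5 each, 1.17-fold, edgeR adjusted p = 0.0935, with the tumour block 0.0217). Nusap1, which bundles spindle microtubules, was 32.3 ± 8.49 and 44.2 ± 7.76 CPM (SD, n = 5 each, 1.37-fold, edgeR adjusted p = 0.111, with the tumour block 0.000186).

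Genes of the central spindle and cytokinesis were called in 4 of 5 cases. Prc1 read 42.2, 29.1, 35.1, 29.3 and 32.4 CPM in PDPN- and 67.1, 54.7, 63.5, 46.5 and 42.9 CPM in PDPN+ libraries, with the lowest PDPN+ value just above the highest PDPN- value (1.64-fold, log2 0.71 ± 0.14, edgeR adjusted p = 0.0065). Kif20a, a kinesin that brings Polo kinase to the central spindle, measured 43.7, 31.0, 35.8, 30.9 and 42.0 CPM against 64.7, 57.2, 67.6, 47.2 and 47.9 CPM with PDPN. It too was without overlap (1.55-fold, edgeR adjusted p = 0.00776). Ect2, the exchange factor that activates RhoA at the cleavage site, and Racgap1, its activator in the centralspindlin complex, were higher by 1.58-fold and 1.54-fold (edgeR adjusted p = 0.0187 and 0.0234). Kif23, the motor of centralspindlin, was 32.6 ± 5.82 and 45.5 ± 10.2 CPM (SD, n = 5 each, 1.4-fold, edgeR adjusted p = 0.0774, with the tumour block 0.00248).

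Of the chromatin members, Mki67 and Top2a were called and Hmgb2 was not. Mki67 (ENSMUSG00000031004, chromosome 7, 135689784 to 135716361, minus strand) encodes Ki-67, the protein that coats mitotic chromosomes and is used as a marker of cycling cells. It read 328, 238, 241, 219 and 236 CPM in PDPN- and 475, 391, 464, 348 and 312 CPM in PDPN+ libraries. PDPN- tumour 1 was well above the other PDPN- libraries and above PDPN+ tumour 6 (1.58-fold, log2 0.66 ± 0.14, edgeR adjusted p = 0.0081). Top2a, the topoisomerase that untangles sister chromatids, measured 233, 155, 176, 147 and 163 CPM against 318, 276, 318, 231 and 207 CPM with PDPN. PDPN- tumour 1 again overlapped the lower PDPN+ libraries (1.55-fold, edgeR adjusted p = 0.0183). Hmgb2 read 18.6, 14.4, 15.7, 14.1 and 14.4 CPM in PDPN- and 17.6, 18.9, 20.1, 15.3 and 13 CPM in PDPN+ libraries. Its fractions interleaved, with 3 tumours higher and 2 lower (1.1-fold, log2 0.14 ± 0.12, edgeR adjusted p = 0.5, with the tumour block 0.312).

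**Figure D2:**
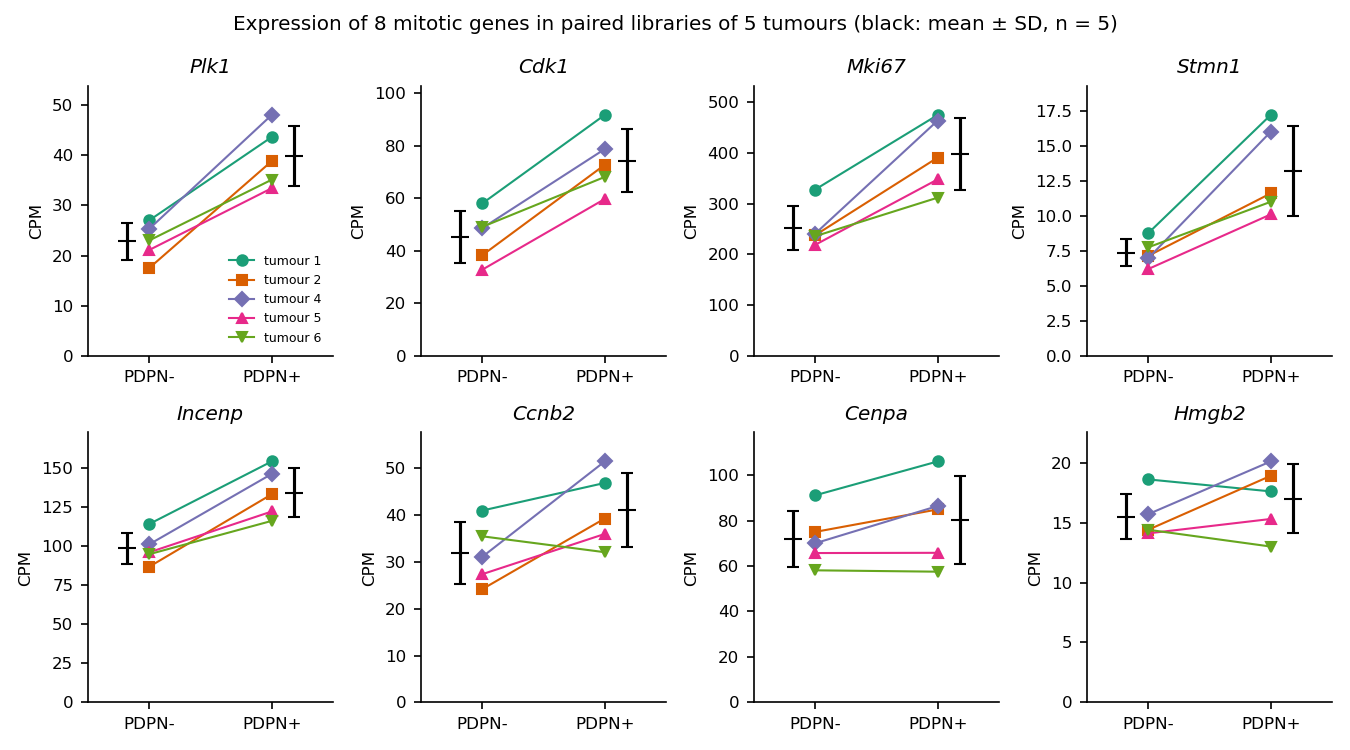
TMM-scaled CPM of 8 members in the PDPN- and PDPN+ library of each tumour (coloured points joined by tumour), with the mean and SD of each group in black (n = 5). Lines climb in all 5 tumours for Plk1, Cdk1, Mki67, Stmn1 and Incenp, whereas Ccnb2, Cenpa and Hmgb2 have lines that are level or fall in at least 1 tumour.

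How firmly a member was called without the block depended on single libraries. The calls of Ccna2, Cdk1, Plk1, Tpx2, Cdca8, Incenp, Cenpf, Nuf2, Kif20b, Hmmr, Stmn1, Kif20a, Prc1 and Mki67, 14 of the 26, held whichever 1 of the 10 libraries was left out. The other 12 calls, those of Ccnb1, Cdc20, Aurka, Aurkb, Bub1, Ttk, Cenpe, Ndc80, Kif11, Ect2, Racgap1 and Top2a, were lost without the PDPN+ library of tumour 4. Of these, 11 (all but Bub1) were also lost without the PDPN- library of tumour 2. The count fell from 26 to 14 and 15 members without these libraries. It was 10 without both libraries of tumour 2, 9 without those of tumour 4 and 17 without those of tumour 5. Their highest edgeR adjusted p on leaving out 1 library ran from 0.0507 for Kif11 to 0.117 for Ccnb1 and 0.127 for Cdc20, which were each lost in 7 of the 10 cases. With the tumour as a block, 30 to 35 members were called on leaving out any 1 tumour, and 29 of the 33 blocked calls held in all 5 such fits. The blocked calls that did not were those of Cdc20 and Ube2c, which held in 2 of the 5 fits, and Cdc25c and Kif2c, which held in 3.

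The tumours differed in how far apart their fractions were. The median log2 difference over the 36 members was 0.49 in tumour 1, 0.72 in tumour 2, 0.76 in tumour 4, 0.66 in tumour 5 and 0.28 in tumour 6. The same median over all tested genes was between 0 and 0.02 in every tumour. Tumour 4 had 32 members at least 1.5-fold higher with PDPN, and tumour 6 had 1, Plk1. For 34 of the 36 members tumour 6 gave the smallest difference, and for 18 tumour 4 gave the largest. Ccnb2, Cdc20, Ube2c, Cenpa and Kif23 were higher with PDPN in 4 tumours, all but tumour 6, and Hmgb2 in 3. These are descriptions of single pairs of libraries, and the tumours were not tested against each other.

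**Figure D3:**
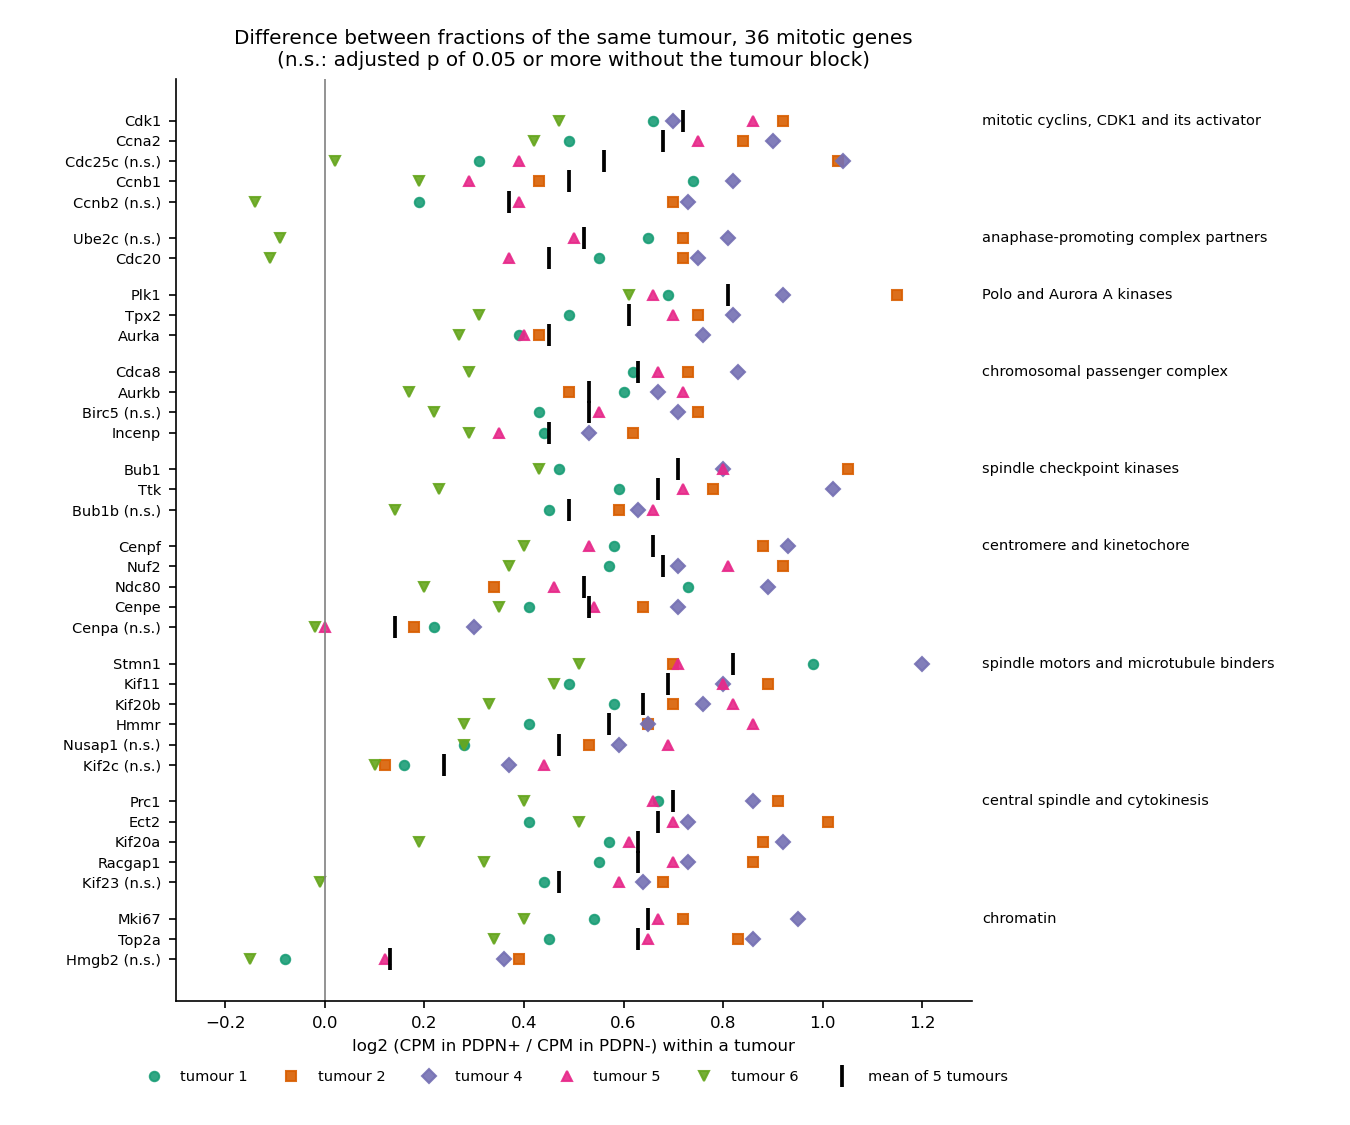
Log2 ratio of PDPN+ to PDPN- CPM within each tumour for the 36 members, grouped by role (coloured symbols for tumours, black bars for the mean of 5 tumours). Tumour 6 (green) lies leftmost for 34 members, and its median of 0.28 is the lowest of the 5.

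Both fractions of tumour 1 had high mitotic levels. Summed over the 36 members, the PDPN- libraries of tumours 1, 2, 4, 5 and 6 held 1876, 1311, 1490, 1252 and 1461 CPM, and the PDPN+ libraries 2626, 2148, 2544, 1893 and 1785 CPM. PDPN- tumour 1 was the highest of its group for 33 members and lay above the summed level of PDPN+ tumour 6. PDPN+ tumour 1 was the highest for 22 members and PDPN+ tumour 4 for 14. PDPN- tumour 5 was the lowest of its group for 23 members, and PDPN+ tumour 6 for 23. The spread of a member over the 5 libraries, as a coefficient of variation, was 8.77% to 26.3% in PDPN- and 5.06% to 25.1% in PDPN+ libraries. Kif2c had the narrowest spread with PDPN.

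Levels were compared between genes per kilobase of exon, on the CPM scale. In PDPN+ libraries Mki67 was the highest at 39.6 ± 7.07 CPM per kilobase (SD, n = 5), followed by Incenp at 31.0 ± 3.63, Top2a at 30.0 ± 5.61 and Ccnb2 at 26.9 ± 5.18. The lowest were Ccnb1 at 2.21 ± 0.546 and Cdc25c at 1.35 ± 0.294 CPM per kilobase, so the ends of the range lay 29.3-fold apart. For 34 of the 35 neighbours in this order the means differed by less than the sum of their SDs over libraries. The members were measured in the same libraries and moved together, so this spread does not measure how certain a rank is. The order was not tested, and ranks were not compared within libraries. Mki67 and Incenp were also first and second in PDPN- libraries, at 25.1 ± 4.28 and 22.7 ± 2.29 CPM per kilobase. Lengths are the union of annotated exons, which is longer than any one transcript. The fold change had no clear relation to this level across the members (r = -0.13 over 36 genes of the same 10 libraries, a description only).

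**Figure D4:**
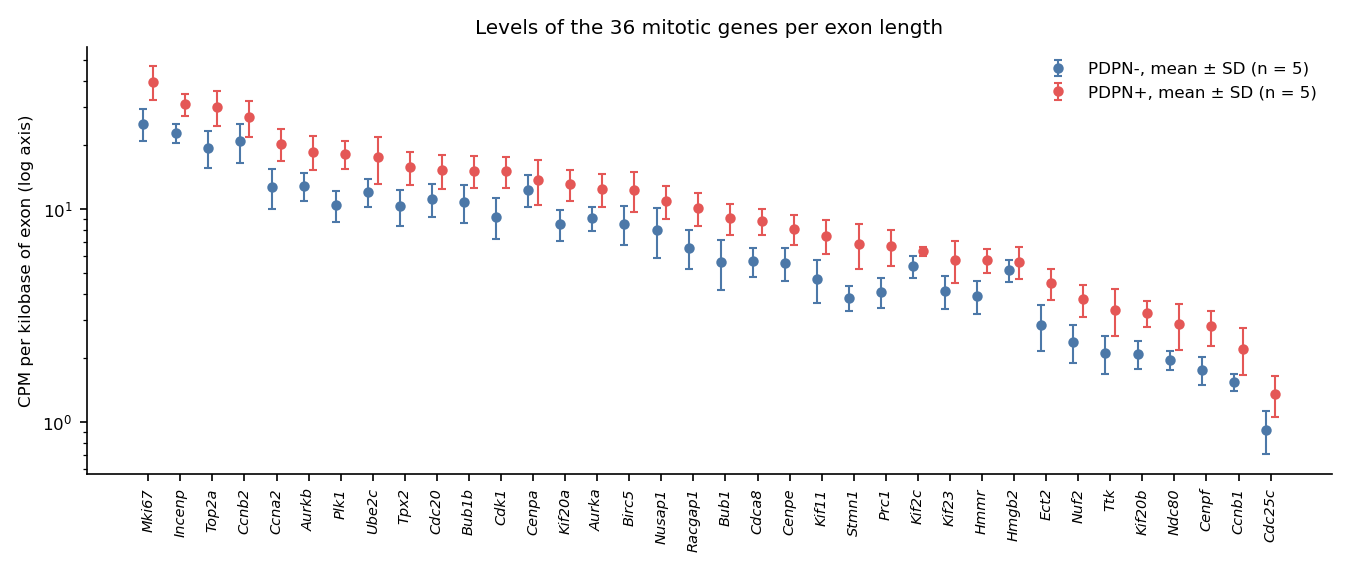
CPM per kilobase of exon of each member (log axis), mean ± SD over 5 libraries, for PDPN- (blue) and PDPN+ (red), ordered by the PDPN+ level. The levels run from 39.6 for Mki67 to 1.35 for Cdc25c in PDPN+ libraries, and the red mean is the higher one for all 36 genes.

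Other genes of the cell cycle were read from lists, with no test of the list. Of 77 other G2 and M phase genes, 45 (58.4%) were higher and 0 lower, with a median log2 fold change of 0.54. Iqgap3, a scaffold protein, had the lowest p and went from 64.0 ± 11.5 to 113 ± 8.23 CPM (SD, n = 5 each, 1.77-fold, edgeR adjusted p = 0.000355). Kif18b, a kinesin of spindle microtubule ends, and Ncaph, a condensin subunit, followed with 1.7-fold and 1.43-fold (edgeR adjusted p = 0.00191 and 0.00227). Lin54 and Psrc1 were the members of that list with fitted values below 0, at -0.18 and -0.08 on the log2 scale. Of 42 genes of G1 and S phase, 27 (64.3%) were higher and 0 lower, and the median log2 fold change was 0.41. Ccne1, which encodes cyclin E1, measured 13.9 ± 2.84 and 22.3 ± 1.66 CPM (SD, n = 5 each, 1.61-fold, edgeR adjusted p = 0.00282). E2f2, an E2F transcription factor, and Lig1, the replicative DNA ligase, were higher by 1.46-fold and 1.45-fold (edgeR adjusted p = 0.00325 and 0.00334). Unblocked, the PDPN+ library of tumour 4 left out gave 22 of 77 and 17 of 42, and leaving out both libraries of tumour 4 gave 12 and 7. Blocking on the tumour gave 63 of 77 (81.8%) and 38 of 42 (90.5%), 58 and 33 when tumour 4 was left out of that fit, and 59 and 31 when tumour 2 was. Without the block, leaving out the PDPN- library of tumour 2 gave 23 of the G2 and M genes, and leaving out both libraries of that tumour 13 of them and 8 of the G1 and S genes. The PDPN+ library of tumour 1 and the PDPN- library of tumour 5 each took the G2 and M count to 26.

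Inhibitors of the cycle and the pocket proteins did not go 1 way: of 16 tested of 18 listed, the test called 4 higher and 4 lower, around a median log2 fold change of -0.06. Btg2, an antiproliferative gene, had the largest difference, 931 ± 98.5 CPM in PDPN- and 465 ± 50.5 CPM in PDPN+ libraries (SD, n = 5 each, log2 -1.0 ± 0.09, edgeR adjusted p = 2.8e-05), and was lower with PDPN in every tumour. Cdkn1a, which encodes the CDK inhibitor p21, was 806 ± 87.1 and 630 ± 53.2 CPM (SD, n = 5 each, log2 -0.36 ± 0.09, edgeR adjusted p = 0.0165). Tob1 and Rb1 were the other genes called lower. Ccng2, an atypical cyclin linked to arrest, was higher (53.1 ± 7.47 and 70.7 ± 6.80 CPM, SD, n = 5 each, edgeR adjusted p = 0.0133), as were Cdkn2c, Rbl1 and Pkmyt1. The count higher was 2 without the PDPN+ library of tumour 1 or 4 or the PDPN- library of tumour 4 or 5, 2 without both libraries of tumour 1, 1 without those of tumour 2 or 5 and 0 without those of tumour 4. The count lower was 1 without both libraries of tumour 2 or 5 and 2 without those of tumour 4. With the block, leaving out 1 tumour gave 3 to 5 higher and 5 to 6 lower. The call of Cdkn1a was lost without both libraries of tumour 2, 5 or 6, and that of Ccng2 without those of tumour 4 or 5. The 5 D-type cyclins and their kinases, which act at the start of the cycle, gave 0 calls in edgeR's fit without the block (2 higher at an unadjusted p under 0.05) and 4 higher with it, and DESeq2 gave 0 and 2. The blocked count was 1 on leaving out tumour 1, 2, 4 or 5, and 4 without tumour 6. Cdk4 was 131 ± 16.2 and 154 ± 10.5 CPM (SD, n = 5 each, 1.18-fold, edgeR adjusted p = 0.0844, with the tumour block 0.00295). Cdk6 and Ccnd1 had log2 differences of 0.18 ± 0.07 and 0.20 ± 0.13 (edgeR adjusted p = 0.116 and 0.329, with the tumour block 0.0432 and 0.0316).

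**Figure D5:**
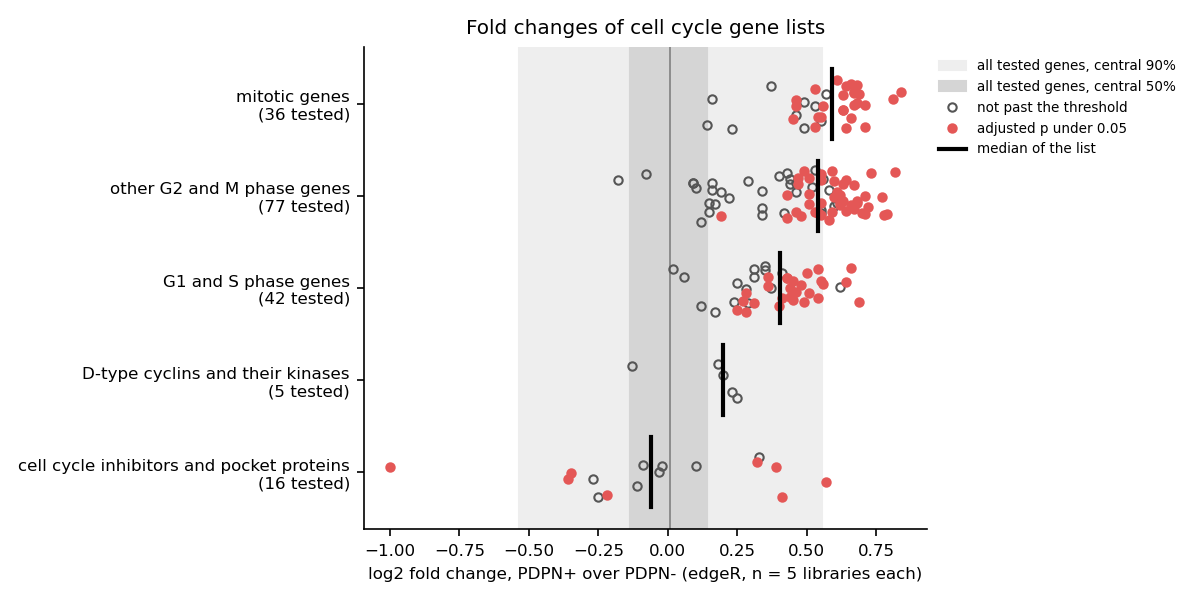
Fitted log2 fold change of each tested gene in 5 lists (points, filled red when the edgeR adjusted p was under 0.05), with the median of the list as a black bar and the central ranges of all tested genes shaded in grey. The mitotic genes centre on 0.59, the other G2 and M genes on 0.54 and the G1 and S genes on 0.41, while inhibitors spread to both sides of 0.

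The sort and the other cells in it were checked by marker genes. Pdpn mRNA was 19.3 ± 7.33 CPM in PDPN- and 215 ± 22.9 CPM in PDPN+ libraries (SD, n = 5 each, 11.2-fold, edgeR adjusted p = 1.96e-05). Macrophage markers were abundant in both groups, at a summed 25280 to 28664 CPM without and 26895 to 30014 CPM with PDPN, and 1 of 12 was called higher and 1 lower. Fibroblast markers, of which 12 of 13 were higher, summed to 35.8 to 46.5 CPM in PDPN- and 303 to 493 CPM in PDPN+ libraries. Col3a1, Col1a1 and Col1a2, fibrillar collagen genes, were the most abundant of them (141 ± 30.7, 122 ± 23.0 and 79.7 ± 13 CPM with PDPN, 8.46 ± 2.76, 7.91 ± 2.3 and 4.85 ± 0.825 CPM without, SD, n = 5 each). The other fibroblast markers were lower in level, and all but Fap were also called higher with PDPN. Fap was 5.19 ± 1.47 CPM without PDPN and 4.8 ± 3.34 CPM with PDPN (SD, n = 5 each, log2 -0.12, edgeR adjusted p = 0.88). Pdgfra was 0.895 ± 0.33 CPM without and 2.86 ± 0.621 CPM with it (SD, n = 5 each, log2 1.66, edgeR adjusted p = 0.00161). Dcn was 0.678 ± 0.281 and 5.55 ± 2.35 CPM (SD, n = 5 each, log2 3.0, edgeR adjusted p = 0.0002). By tumour the PDPN+ fibroblast sum was 493, 303, 375, 443 and 428 CPM for tumours 1, 2, 4, 5 and 6. The part of these cells in the mitotic difference was not tested.

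Carcinoma cells also divide, so the epithelial and tumour cell markers are given too. Their sum was 91.6, 102, 109, 125 and 224 CPM in PDPN- and 104, 120, 137, 217 and 270 CPM in PDPN+ libraries of tumours 1, 2, 4, 5 and 6. It was thus higher with PDPN in each tumour, while the groups overlapped and edgeR called 0 of the 10 tested markers in either direction (0 higher and 3 lower at an unadjusted p under 0.05). Cdh1 made up most of the sum, at 75.9 ± 46.8 and 124 ± 65.1 CPM (SD, n = 5 each), whereas Epcam, the defining one, was 3.32 ± 0.582 and 2.14 ± 0.673 CPM (SD, n = 5 each). Monocyte markers were lower with PDPN (4 of 8 called), summing to 1001 to 1570 CPM without and 475 to 715 CPM with it. Ccr2, a chemokine receptor of monocytes, was the most abundant at 964 ± 140 and 424 ± 49.7 CPM (SD, n = 5 each); Plac8 and Vcan, next in level, were not called (edgeR adjusted p = 0.0506 and 0.655). Eosinophil markers summed to 26.9 to 62.3 CPM without and 2.53 to 7.6 CPM with PDPN. Of the 8 markers 4 were tested, and 3 were called lower. Ccr3 and Siglecf were the most abundant of these (16.7 ± 4.59 and 16.4 ± 6.22 CPM without, 0.828 ± 0.337 and 2.55 ± 0.956 CPM with PDPN, SD, n = 5 each), while Ear2, next in level, was not called. Of the neutrophil markers, 8 of the 10 tested were lower with PDPN and 1, Mmp8, was higher. Retnlg was 47.2 ± 23.6 and 1.35 ± 0.427 CPM, and G0s2 34.5 ± 15.1 and 2.01 ± 0.493 CPM (SD, n = 5 each). The summed levels nonetheless overlapped, at 418 to 619 CPM without and 313 to 656 CPM with PDPN, and Mmp9 was the most abundant of these markers (185 ± 83.4 and 350 ± 128 CPM, SD, n = 5 each, not called). In the remaining lists the groups overlapped, and many markers were too low to be tested. Of 6 dendritic cell markers 4 were tested and 1 was lower. Of 10 endothelial markers 4 were tested and 1 was higher. Of 7 B and plasma cell markers 1 was tested, and it was lower. Of 11 T and NK cell markers 2 were tested, and of 6 mast cell and basophil markers 1, with 0 called. The part of any of these in the mitotic difference was not tested.

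Library totals ran from 12597829 to 15406722 counts, with 18509 to 19293 genes detected, so 1 count was worth 0.0649 to 0.0794 CPM. The share of mitochondrially encoded counts was 0.435% to 0.812% over all libraries, with overlapping groups. For 25 of the 36 members no other annotated gene shares exon bases. On the opposite strand, Cdc23 overlaps 29.3% of the exon length of Kif20a, Tnnc2 22.8% of Ube2c, Gm3550 12.7% of Cdc25c, Exosc9 12.5% of Ccna2 and Rccd1 11.1% of Prc1. Ccnb1 and Ccnb2 each have a gene copy named after them (Ccnb1-ps and Ccnb2-ps). The sources used here do not state whether the counting used strand or reads with several matches, and these values are uncertain to that extent.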

How the data were processed

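RNA was measured in 10 libraries, 5 PDPN+ and 5 PDPN-, grouped by the labels. Per the labels' protocols, tumours were digested, cells sorted and RNA pre-amplified with SMART-Seq. No molecular identifiers are mentioned, so counts are reads. The SEs and p-values take in the spread between libraries, not counting error alone. The authors deposited 1 table of raw counts per gene. The tools named in the submitters' processing notes are featureCounts 1.5.3, STAR 2.5.2b, cutadapt 1.15 and Bowtie2 2.3.3.1; settings, build and annotation were not given in the sources used here. Of the identifiers, 46005 matched GENCODE M21 (GRCm38), which served for positions and exon lengths only, for identification.

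Counts were tested with edgeR 4.0.16 (R 4.3.3): filterByExpr (minimum count 10, minimum total 15), TMM, robust quasi-likelihood fit with group only, Benjamini-Hochberg adjustment over 13595 genes, called under 0.05. The common biological coefficient of variation was 13.3%. The SE is the absolute log2 fold change divided by the square root of F. The fit was tested on simulated data. Alternatives were library size scaling, DESeq2 size factors, other filters, DESeq2 1.42.0, the tumour block, and leaving out libraries or tumours.

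The labels number the tumours, and same-tumour libraries deviated together from their group means (r = 0.499, 0.449, 0.237, 0.448 and 0.437 for tumours 1, 2, 4, 5 and 6; at most 0.0872 with another tumour), so the number pairs the libraries. Between any 2 libraries of the same fraction the chi-square per gene was at least 7.08, above sampling noise.

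All values of 10 libraries are given for the 2 members with the lowest p in each of 9 roles; members that missed the threshold are named with values, as are up to 3 genes by lowest p of each pathway list and the 3 most abundant markers of lists that differed. Further genes of these lists were named after their values were seen. The members and lists were chosen with earlier results of these data known. Promoters were matched by symbol, for 333 tested genes through the current symbol of their Ensembl identifier. Not every annotated gene copy is reported here.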

Additional observations from a re-analysis of the deposited data

Results flagged for a closer look

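In 72 groups of 5 libraries (36 members in each fraction), a single library stood far from the others for 2 genes. A rate of 1 in 20 would give 3.6 among independent groups. The members share their libraries and moved together, so that number cannot serve as a measure of chance. Both flags fell on the PDPN- library of tumour 1, which was the highest of its group for 33 members. The PDPN- library of tumour 1 had 28.1 CPM of Aurka, where the other PDPN- libraries had 20.3 to 22.5 CPM (gap over range 0.717). The same library had 328 CPM of Mki67, where the others had 219 to 241 CPM (gap over range 0.796).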

How the results depend on the processing

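No fitted direction of a mitotic gene was turned in any of 972 combinations of gene and alternative setting; 807 kept direction and side of the threshold, 99 lost the call and 66 gained it. The number of members called higher was 24 with library size scaling, 26 with DESeq2 size factors, 24 without a filter, 26 with a stricter filter, 31 with DESeq2, and 33 with the replicate block in either tool; 0 were lower in each. The replicate block moved the counts over all genes to 1880 higher and 1950 lower (DESeq2 with the block 1445 lower), and the D-type list to 4 higher (2 with DESeq2). The cause was not tested. On leaving out libraries or tumours, with and without the block, calls ran from 437 to 1925 higher and 482 to 2016 lower over all genes, from 9 to 35 for the members, 12 to 65 for the other G2 and M genes, 7 to 39 for G1 and S, 0 to 5 higher and 1 to 6 lower for the inhibitors, and 0 to 4 higher and 0 to 1 lower for the D-type list. The lowest of each higher count came without tumour 4 and without the block, apart from the D-type list. At 53 counts in its poorest library, Cdc25c is the least precise member.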
